A study of Schizosaccharomyces pombe with 6 samples.

Results

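The genes described here are 10 targets of MBF in fission yeast (Schizosaccharomyces pombe), namely cdc18, cdt1, suc22, cig2, mik1, mrc1, tos4, ams2, yox1 and nrm1. They were taken by name, as MBF-regulated genes whose transcription the replication checkpoint sustains in hydroxyurea, and not by any measured value. Each was read through the probes centred inside the gene or within 500 bp of it. Of the 10 genes, 9 could be placed, with 106 of the 42641 nuclear probes of the array, of which 100 were used; they are 9 of 4303 protein-coding gene windows with at least 2 probes. The tenth, mrc1 (SPAC694.06C, chromosome I, 4209203 to 4212388, minus strand), encodes the mediator that couples Rad3 to the effector kinase Cds1; it lies on the part of chromosome I where array and reference positions were 6149 to 6150 bp apart, and no value is given for it.

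Rad52, the mediator of homologous recombination, was measured by chromatin immunoprecipitation on 6 two-colour tiling arrays, 3 from cdc25-22 cells and 3 from cdc25-22 cells that also lacked rad3. The cdc25-22 mutation, carried by both strains, stops cells before mitosis at the restrictive temperature. Cultures of both were blocked at 36.5 °C for 4 h, shifted back to 25 °C and treated with hydroxyurea at 6 mM, an inhibitor of ribonucleotide reductase. Rad3 is the ATR-like kinase at the head of the replication checkpoint, and the comparison asks where Rad52 lies in stressed cells with and without it. No array was a control immunoprecipitate and no dye was exchanged, so specific and unspecific enrichment within a strain cannot be told apart. The labels do not say whether the replicates were separate cultures, so p-values measure the spread between these arrays, which may be technical.

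MBF is built around Cdc10, Res1 and Res2 and switches on genes for DNA replication as cells pass from G1 into S phase. The repressors Nrm1 and Yox1, themselves products of MBF targets, bind the complex and close this wave. When forks stall, Rad3 activates Cds1, which relieves that repression and keeps the targets transcribed. Rad52 gathers where single-stranded or broken DNA is being repaired and is not itself a transcription factor.

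The sequences before 5 of the genes are shown because these are the 4 targets with Rad52 signal above the array median in cdc25-22 cells and the 1 target with more signal without rad3. Each is the 200 bases before the annotated gene start on the gene's strand, from the RefSeq genome ASM294v3, with every match to ACGCG, the core of the element that MBF binds, on either strand in capitals. They lie at chrII:2217985-2218184 (cdc18, minus strand), chrII:477192-477391 (cdt1, plus), chrI:2709582-2709781 (cig2, plus), chrI:1922343-1922542 (tos4, plus) and chrII:3721423-3721622 (suc22, plus).
cdc18: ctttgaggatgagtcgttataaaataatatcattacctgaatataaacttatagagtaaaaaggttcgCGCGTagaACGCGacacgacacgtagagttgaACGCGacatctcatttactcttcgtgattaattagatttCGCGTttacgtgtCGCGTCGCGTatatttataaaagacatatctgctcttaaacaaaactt
cdt1: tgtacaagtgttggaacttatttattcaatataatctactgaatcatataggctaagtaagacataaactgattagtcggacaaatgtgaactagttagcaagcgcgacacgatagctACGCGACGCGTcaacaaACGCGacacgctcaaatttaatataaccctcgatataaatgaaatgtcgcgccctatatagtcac
cig2: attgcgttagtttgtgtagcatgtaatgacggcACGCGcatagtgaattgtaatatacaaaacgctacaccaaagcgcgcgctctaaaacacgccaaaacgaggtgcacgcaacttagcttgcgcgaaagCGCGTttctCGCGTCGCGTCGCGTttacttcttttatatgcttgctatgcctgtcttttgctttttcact
tos4: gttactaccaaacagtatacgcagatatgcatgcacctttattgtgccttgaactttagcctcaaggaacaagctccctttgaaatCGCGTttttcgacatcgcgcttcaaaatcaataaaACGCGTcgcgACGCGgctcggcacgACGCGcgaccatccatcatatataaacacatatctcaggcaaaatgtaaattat
suc22: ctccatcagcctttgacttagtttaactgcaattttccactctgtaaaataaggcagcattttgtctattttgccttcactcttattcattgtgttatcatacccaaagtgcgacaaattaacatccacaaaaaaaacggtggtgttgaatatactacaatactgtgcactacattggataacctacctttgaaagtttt
Counting overlapping or touching matches as 1 stretch, cdc18 held 5, tos4 4, cig2 3 and cdt1 2, while suc22 held 0. Of the genes not shown, mrc1, ams2, yox1 and nrm1 held 2 each, as many as cdt1. A link between these counts and Rad52 signal was not tested. Over all members 8 of 10 (80%) held ACGCG in this window, against 422 of 5113 protein-coding genes (8.25%). The longer form ACGCGT, which contains ACGCG, stood before 5 of the 10 (cdt1, mrc1, tos4, ams2 and yox1) and before 2.31% of all genes. The members without a match were suc22 and mik1. In mik1 the annotated gene start lies 401 bp before the coding sequence, and that stretch held 5; suc22 held 0 there and 0 in the 500 bp before its start. These are letters found in fixed windows and do not show binding.

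The scanner files listed for replicates 1 and 2 go against their strain labels, so every value below rests on a choice. Of the 6 columns of the deposited value table, 5 equalled a scanner file on all 42641 probes within 0.001 log2, and for replicates 1 and 2 that file was the one listed for the other strain; files were placed under the column they equalled. The file of cdc25-22 replicate 3 equalled no column and stayed as listed. With this placement 12, 9 and 11 of the 33 probes of rad3 had input more than 2 log2 below the array median in the rad3-deleted arrays, and 2, 2 and 1 in the cdc25-22 arrays. Median signals were 580 to 1211 for the immunoprecipitate and 560.5 to 845 for the input, over backgrounds of 38 to 71.5. Between 0.71% and 3.66% of probes were not well above background on 5 arrays and 15.11% on rad3-deleted replicate 2; 2137 spots were flagged on cdc25-22 replicate 3 and 523 or fewer on each of the others. Pearson's r over gene windows was 0.407 to 0.594 among the cdc25-22 arrays, 0.777 to 0.876 among the rad3-deleted arrays and 0.0 to 0.334 between strains.

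In cdc25-22 cells the windows of cdc18, tos4, cdt1 and cig2 stood above the array median, 4 of the 9. Below it stood 0 (limma, Benjamini-Hochberg adjusted p under 0.05 over all windows). These 4 were also the only members with an unadjusted limma p under 0.05, which 884 of 4303 windows had. Over all 4303 windows, 4.09% were called above and 0.883% below the median. In cells without rad3, cdc18 and suc22 stood above and ams2 below, 2 and 1 of the 9, where 24.6% of all windows were called above and 23.9% below. Between the strains, cdt1, tos4 and ams2 fell without rad3 and suc22 rose, 3 lower and 1 higher of 9, against 10% lower and 15.8% higher of 4300 windows. The median difference of the members was -0.20 on the log2 scale and that of all windows -0.03, and 2 of 9 members against 45.1% of all windows had a difference above 0. All 4 called members also had groups that did not overlap, with every rad3-deleted array lower for cdt1, tos4 and ams2 and higher for suc22; 23.0% of all windows had all rad3-deleted arrays lower and 21.4% had all of them higher. Among all calls of the difference 61.2% were higher, a share that was 49.7% after quantile normalization and 77.0% in the value table.

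The difference calls did not hold when single arrays were left out, which also leaves fewer arrays for the test. The differences themselves kept their sign without any 1 array. They ran from -0.392 to -0.235 for cdt1, 0.335 to 0.49 for suc22, -0.445 to -0.315 for tos4 and -0.435 to -0.297 for ams2. Without cdc25-22 replicate 1 or without rad3-deleted replicate 2, 0 of the 9 members passed (limma; adjusted p for cdt1, suc22, tos4 and ams2 of 0.089, 0.108, 0.112 and 0.13 without the first, and 0.17, 0.0956, 0.0834 and 0.103 without the second). The call of cdt1 was also lost without cdc25-22 replicates 2 (0.121) or 3 (0.0682), that of tos4 without cdc25-22 replicate 3 (0.0681), and those of suc22 and ams2 without rad3-deleted replicate 3 (0.0643 each). With the files as listed, the differences were 0.21 for cdt1, -0.14 for suc22, 0.12 for tos4 and 0.14 for ams2, and 0 of 4300 windows passed. In the value table, which needs no placement of files, they were -0.25, 0.33, -0.28 and -0.31, with limma adjusted p from 0.104 to 0.177. Its cdc25-22 replicate 3 column, equal to no file, correlated over probes at 0.354, 0.363 and 0.515 with rad3-deleted replicates 1, 2 and 3. That column correlated at 0.217 and 0.139 with cdc25-22 replicates 1 and 2, and at 0.397 with the file of replicate 3. Whether it lowers the differences was not tested.

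**Figure D1:**
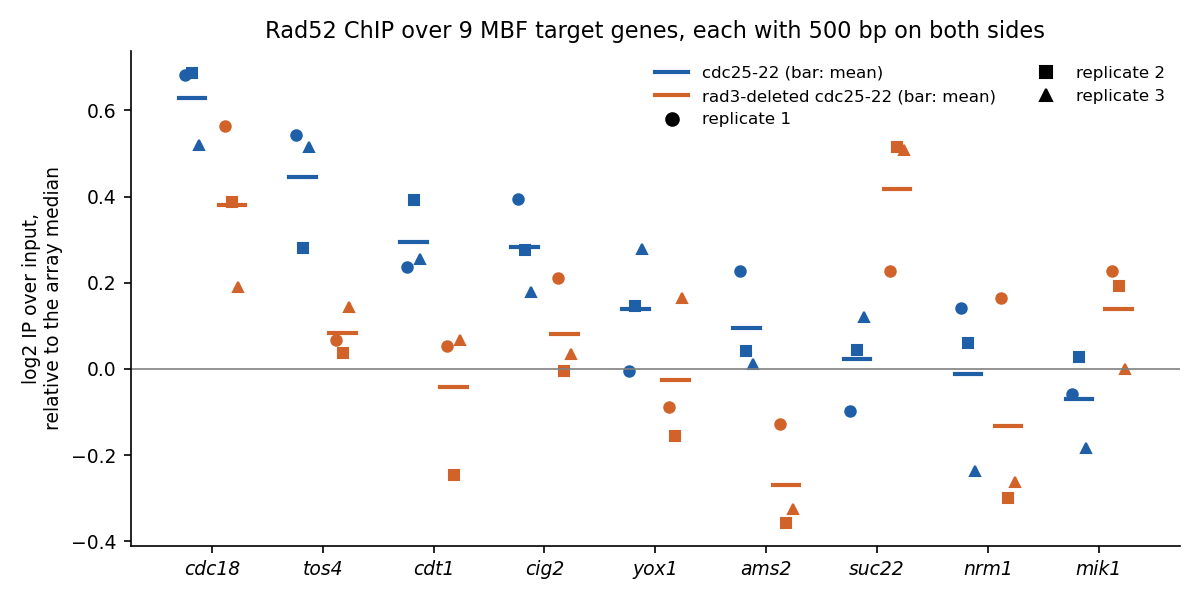
Log2 immunoprecipitate over input relative to the array median (vertical axis) for the 9 placed genes, ordered by their cdc25-22 mean; blue points are cdc25-22 arrays, orange points rad3-deleted arrays, shapes the replicates and bars the means. The cdc18 points lie above 0 on all 6 arrays, and the groups separate for tos4, cdt1, ams2 and suc22.

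Cdc18 and Cdt1 load the MCM helicase onto origins, and both are made in the MBF wave. cdc18 (SPBC14C8.07C, chromosome II, 2215955 to 2217984, minus strand) had the highest mean of the 9 in cdc25-22 cells. Its log2 ratios, over 8 probes, were 0.68, 0.69 and 0.52 in cdc25-22 replicates 1, 2 and 3 and 0.56, 0.39 and 0.19 in the rad3-deleted replicates. All 6 arrays were above 0 and the groups overlapped. The mean was 0.63 ± 0.10 (SD, n = 3; adjusted p against 0 = 0.00115) with rad3 and 0.38 ± 0.19 (SD, n = 3; 0.00175) without, and the difference was -0.25 (SE 0.11, adjusted p = 0.115). Both levels kept their call when any 1 array was left out, with adjusted p up to 0.0152 and 0.0194. The difference passed after quantile normalization (-0.53, limma adjusted p = 0.014) and without rad3-deleted replicate 1 (-0.34, 0.0289). In the value table the difference was -0.05, and the cdc25-22 level of 0.44 missed the threshold (adjusted p = 0.0582).

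cdt1 (SPBC428.18, chromosome II, 477392 to 478738, plus strand; 7 probes) read 0.24, 0.39 and 0.26 in cdc25-22 arrays and 0.05, -0.25 and 0.07 in rad3-deleted arrays. Every array with rad3 was above every array without it, and only replicate 2 without rad3 was well below 0. Its mean was 0.30 ± 0.09 (SD, n = 3; adjusted p = 0.0479), close to the threshold, against -0.04 ± 0.18 (SD, n = 3). The difference was -0.34 (SE 0.11, adjusted p = 0.0394), a ratio 1.26-fold lower without rad3. Over the 5 probes inside the gene, both calls were lost. There the level with rad3 was 0.20 (limma adjusted p = 0.31) and the difference -0.29 (0.153). The probe after the gene lies inside the neighbouring gene utp15, so the 2 genes share it. The level call in cdc25-22 cells was lost without any 1 of the 3 cdc25-22 arrays (adjusted p = 0.157 to 0.291).

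suc22 (SPBC25D12.04, chromosome II, 3721623 to 3723072, plus strand; 9 probes) encodes the small subunit of ribonucleotide reductase, the enzyme that hydroxyurea blocks. It read -0.10, 0.04 and 0.12 with rad3 and 0.23, 0.52 and 0.51 without it. It sat near the array median on all 3 cdc25-22 arrays and above it on all 3 others, with no overlap. The means were 0.02 ± 0.11 and 0.42 ± 0.17 (SD, n = 3 each; adjusted p against 0 = 0.92 and 0.000844), and the difference was 0.39 (SE 0.11, adjusted p = 0.0211), or 1.31-fold higher. Its level without rad3 kept its call without any 1 array (adjusted p up to 0.0172). The gene overlaps an AT-rich island, a 500 bp window of at least 75% A+T like those at many fission yeast origins; the other placed members lay 1782 to 28386 bp from one.

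Cig2 is the main S-phase cyclin, and Mik1 is a kinase that, like Wee1, holds Cdc2 inactive by tyrosine phosphorylation. cig2 (SPAPB2B4.03, chromosome I, 2709782 to 2714162, plus strand; 19 probes) read 0.40, 0.28 and 0.18 with rad3 and 0.21, -0.01 and 0.04 without. The groups overlapped at a single pair of arrays, cdc25-22 replicate 3 and rad3-deleted replicate 1. Its means were 0.28 ± 0.11 (SD, n = 3; adjusted p = 0.0435) and 0.08 ± 0.12 (SD, n = 3), and the difference was -0.20 (SE 0.10, adjusted p = 0.156). The level call was lost without any 1 of the 3 cdc25-22 arrays (adjusted p = 0.278, 0.189 and 0.091) or without rad3-deleted replicate 2 (0.0757).

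mik1 (SPBC660.14, chromosome II, 221298 to 224117, plus strand; 15 probes) lay below or near the array median with rad3, at -0.06, 0.03 and -0.18, and at 0.23, 0.19 and 0.00 without it. Only rad3-deleted replicate 3 fell within the range of the other strain. Its difference was 0.21 (SE 0.10, adjusted p = 0.143), so suc22 and mik1 were the only members with a value above 0, and mik1 did not pass.

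tos4 (SPAP14E8.02, chromosome I, 1922543 to 1924915, plus strand; 10 probes) encodes a protein with a forkhead-associated domain. It read 0.54, 0.28 and 0.51 with rad3 and 0.07, 0.04 and 0.14 without. The lowest array with rad3 was well above the highest without it. The means were 0.45 ± 0.14 (SD, n = 3; adjusted p = 0.00405) and 0.08 ± 0.05 (SD, n = 3), and the difference was -0.36 (SE 0.10, adjusted p = 0.0218), 1.29-fold lower. The level call in cdc25-22 cells was lost without cdc25-22 replicate 1 (adjusted p = 0.0684).

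ams2 (SPCC290.04, chromosome III, 2001159 to 2004364, plus strand; 14 probes) encodes the GATA-type factor that activates histone genes in S phase. It read 0.23, 0.04 and 0.01 with rad3 and -0.13, -0.36 and -0.32 without. All arrays with rad3 were at or above the array median and all arrays without it were below. The means were 0.09 ± 0.12 and -0.27 ± 0.12 (SD, n = 3 each), of which only the second was called (adjusted p = 0.00958; 0.0862 without rad3-deleted replicate 2). The difference was -0.36 (SE 0.11, adjusted p = 0.0243), 1.29-fold lower, and unlike that of tos4 it ran from the median down to below it.

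Of the repressor genes, yox1 (SPBC21B10.13C, chromosome II, 1648232 to 1648840, given as plus strand; 6 probes) encodes the homeodomain repressor and read -0.01, 0.15 and 0.28 with rad3 and -0.09, -0.16 and 0.17 without. nrm1 (SPBC16A3.07C, chromosome II, 4285944 to 4288583, given as plus strand; 12 probes) encodes the co-repressor and read 0.14, 0.06 and -0.24 against 0.16, -0.30 and -0.26. Both spread across 0 in each strain, and their groups overlapped widely. The differences were -0.17 (SE 0.11, adjusted p = 0.294) and -0.12 (SE 0.14, adjusted p = 0.529).

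In order of the mean in cdc25-22 cells the windows ran cdc18 (0.63), tos4 (0.45), cdt1 (0.30), cig2 (0.28), yox1 (0.14), ams2 (0.09), suc22 (0.02), nrm1 (-0.01) and mik1 (-0.07). Every pair of neighbours in that order had overlapping arrays, cdc18 and tos4 included. Without rad3 the order was suc22 (0.42), cdc18 (0.38), mik1 (0.14), tos4 (0.08), cig2 (0.08), yox1 (-0.03), cdt1 (-0.04), nrm1 (-0.13) and ams2 (-0.27), again with overlapping arrays between neighbours. By these means suc22 moved to the first place and mik1 came up from the last, while cdc18 stayed among the top pair.

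**Figure D2:**
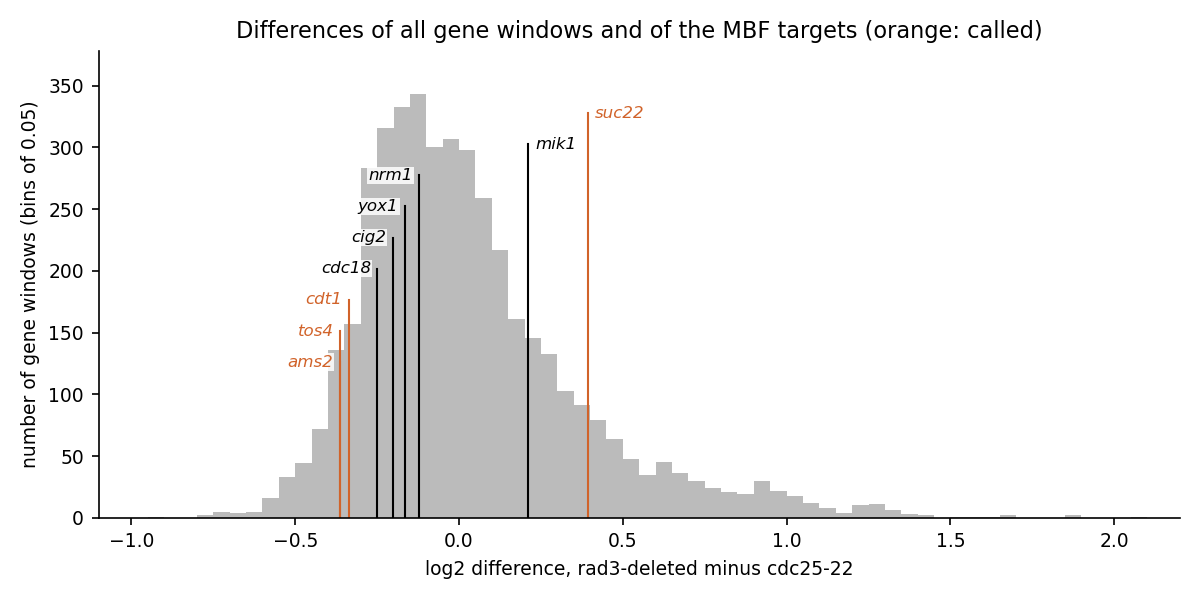
Number of gene windows (vertical axis) by log2 difference, rad3-deleted minus cdc25-22 (horizontal axis), for all 4300 windows, with vertical lines at the 9 members, orange where called. The members cdt1, tos4 and ams2 lie near the lower edge, between the 6.33 and 8.3 percentiles, and suc22 at the 87.4 percentile of a distribution with a long upper tail.

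The loci were then split into the gene and its flanks; whether the parts differ from each other in their strain difference was not tested. Over probes inside the genes, every rad3-deleted array was lower than every cdc25-22 array for cdc18, cdt1, cig2, tos4 and ams2 (5 of 9 members; 22.6% of 4124 interiors) and higher for suc22 and mik1 (2 of 9; 17.8%). Of these, tos4 and ams2 passed as lower and suc22 as higher, 2 and 1 of 9, against 5.24% lower and 10.5% higher of all interiors. tos4 had the largest interior difference of the members: 0.64, 0.44 and 0.61 with rad3 against 0.01, 0.00 and -0.04 without, a difference of -0.58 (SE 0.11, adjusted p = 0.00526), or 1.49-fold. This call held without any 1 array, with adjusted p from 0.00887 to 0.0394, and the value with the files as listed was 0.14.

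The interior of ams2 differed by -0.41 (SE 0.12, adjusted p = 0.0445) and that of suc22 by 0.44 (SE 0.12, adjusted p = 0.0294). Both calls were lost without any 1 of the 3 cdc25-22 arrays or without rad3-deleted replicates 2 or 3, with adjusted p from 0.0651 to 0.191 for ams2 and from 0.0518 to 0.119 for suc22. In cdc18 the interior values were 0.67, 0.64 and 0.61 against 0.41, 0.27 and 0.24, a difference of -0.33 (SE 0.11, adjusted p = 0.0549). In mik1 they were -0.03, -0.04 and -0.19 against 0.38, 0.26 and 0.14, a difference of 0.35 (SE 0.11, adjusted p = 0.0598, and 0.0456 with the replicate number as a block).

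Upstream, in the 500 bp before the gene, 0 of 8 members with probes passed (limma), against 10.1% higher and 0.549% lower of 4193 upstream windows. An unadjusted limma p under 0.05 was found for 1 member and for 989 of the 4193 windows. That 1 was cdc18, whose usable upstream probe (chrII:2218167-2218226, centre at -212 bp from the gene start) read 0.64, 0.43 and -0.24 with rad3 and 1.61, 0.83 and 0.88 without. Here the groups did not overlap and the direction was opposite to that of the gene body, with a difference of 0.83 (SE 0.27, adjusted p = 0.0788, and 0.0132 with the replicate number as a block). The upstream window of tos4 did not overlap between the strains either, with a difference of 0.32 (SE 0.20, adjusted p = 0.39), from -0.13 ± 0.04 to 0.19 ± 0.30 (SD, n = 3 each). These were 2 of 8 members with all rad3-deleted arrays higher and 0 of 8 with all lower, against 21.2% and 7.23% of all upstream windows. The upstream median of the 8 members was 0.13, against 0.08 for all upstream windows.

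Downstream, in the 500 bp after the gene, cdc18, cdt1 and tos4 stood above the array median in cdc25-22 cells, 3 of 9, against 5.95% of windows. The 2 probes after cdc18 averaged 0.78 ± 0.13, the 1 probe after cdt1 1.10 ± 0.59 and the 1 probe after tos4 0.76 ± 0.67 (SD, n = 3 each; adjusted p = 0.0105, 0.00505 and 0.0475). The cdt1 probe lies inside utp15 and the farther cdc18 probe inside arc1. Without rad3, cdt1 (0.63), suc22 (0.59) and nrm1 (0.56) stood above and ams2 (-0.51) below (limma adjusted p = 0.0323, 0.0382, 0.00888 and 0.0332). Those were 3 and 1 of 9, where 640 and 301 of 4221 windows were called. The suc22 probe lies inside trm1. Between the strains 0 of 9 downstream windows passed (limma), against 3.65% higher and 0.237% lower of 4218. An unadjusted limma p under 0.05 was found for 3 members and for 767 of the 4218 windows. These 3 were cdc18 (-0.58, adjusted p = 0.194), ams2 (-0.80, adjusted p = 0.0641) and nrm1 (0.68, adjusted p = 0.0621).

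Single probes are given as a description and carried no test. In cdc25-22 cells the strongest cdc18 probe (chrII:2215804-2215863, past the 3′ end) read 1.11, 1.10 and 1.19, against 0.78, 0.49 and 0.08 without rad3. In cdt1 the strain means lay between -0.20 and 0.13 at the first 2 probes inside the gene, at 77 and 296 bp. At 992 bp cdt1 then read 0.36, 0.50 and 0.82 with rad3 and -0.04, -0.52 and -0.21 without. In tos4 the probe at 69 bp averaged 0.18 in each strain, whereas at 950 bp it was 0.71, 0.44 and 0.93 with rad3 and 0.02, -0.32 and -1.18 without. The tos4 arrays overlapped at 379 and 1500 bp as well, with differences of -0.48 and -0.30, and the cdt1 probe upstream of the gene differed by -0.47 with overlapping arrays.

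How often single probes separated over the whole array was not counted, so the probe counts here have no share beside them. Of all gene interiors, 22.6% had all rad3-deleted arrays lower and 17.8% had all of them higher. The ams2 arrays separated at 6 of 11 probes inside the gene, first at 810 bp. In cig2 the highest probes, at 3031 and 3212 bp, averaged 0.82 ± 0.20 and 0.97 ± 0.14 with rad3 and 0.64 ± 0.36 and 0.54 ± 0.52 without (SD, n = 3 each). They lie in the annotated 3′ UTR, where cig2 overlaps pmc1 on the other strand, and the arrays overlapped at both. In mik1 the separation came as 2 pairs of probes. At 399 bp, where the coding sequence begins, mik1 read 0.01, -0.41 and -0.74 with rad3 and 0.72, 0.60 and 0.68 without, and at 2021 bp -0.19, 0.15 and 0.17 against 0.70, 0.54 and 0.79. The neighbouring probes at 588 and 2195 bp also separated, and the 4 probes in between and the remaining 7 did not. Of these separating probes, those at 399, 588 and 2021 bp were not well above background on 1, 1 and 2 arrays. In suc22, by contrast, all 9 probes averaged higher without rad3, and 2 of them, at 487 and 838 bp, had arrays that did not overlap.

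**Figure D3:**
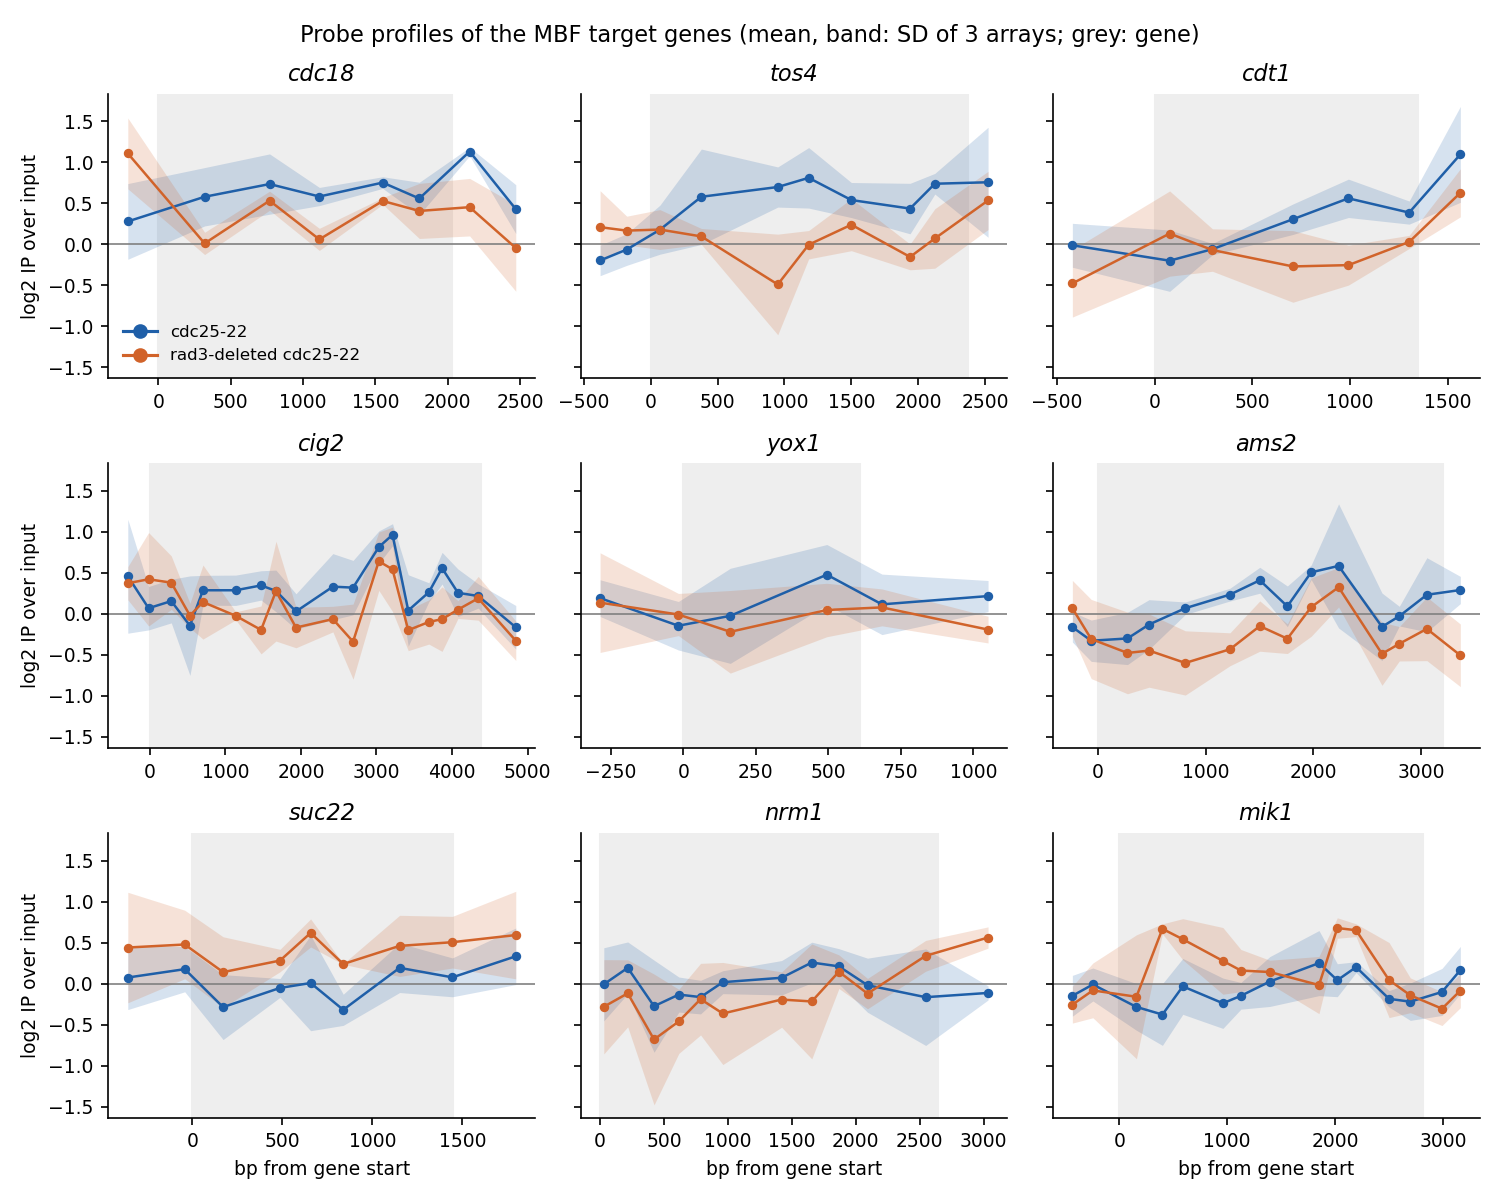
Log2 immunoprecipitate over input (vertical axis) against distance from the gene start in bp (horizontal axis) for each placed gene; lines join the probe means of cdc25-22 (blue) and rad3-deleted (orange) arrays, bands are the SD of 3 arrays and grey marks the gene. The rad3-deleted line lies below the other over most of cdc18, tos4 and ams2 and above it at every suc22 probe. In mik1 the arrays separate at 2 pairs of probes, of which those at 399, 588 and 2021 bp were near background on 1 or 2 arrays.

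The ratio was then split into its channels, since a change of input alone would also move it. In the input channel 0 of the 9 members passed (limma; 0 members and 133 of 4300 windows at an unadjusted p under 0.05, and 0.0% of windows called higher and 0.0% lower). The member differences in input ran from -0.17 for cdc18 (SE 0.10) to 0.14 for nrm1 (SE 0.12), with a median of -0.01. In the immunoprecipitate channel 0 of 9 passed as well (limma), against 10.2% higher and 4.95% lower of 4300 windows. An unadjusted limma p under 0.05 was found for 4 members and for 1419 of the 4300 windows. Those 4 were cdc18 (-0.42, SE 0.15, adjusted p = 0.0871), cdt1 (-0.46, SE 0.17, 0.0797), tos4 (-0.39, SE 0.13, 0.0741) and suc22 (0.52, SE 0.23, 0.134). With the replicate number as a block all 4 passed, at adjusted p = 0.00733, 0.0086, 0.00841 and 0.00436, and the windows called over the whole array rose from 437 to 797 higher and from 213 to 949 lower; in the input channel the block called 61 windows higher and no member.

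The 4 immunoprecipitate differences had the direction of the ratio. tos4 in the immunoprecipitate read 0.09, -0.04 and 0.19 with rad3 and -0.30, -0.47 and -0.16 without, while its input read -0.42, -0.32 and -0.29 against -0.33, -0.53 and -0.25. suc22 read 0.49, 1.01 and 0.78 against 0.79, 1.76 and 1.29 in the immunoprecipitate and 0.61, 0.97 and 0.69 against 0.60, 1.23 and 0.84 in the input. For suc22 the replicates 2 were highest in both channels of both strains. For cdc18 the input was lower without rad3 on every array, at 0.32, 0.30 and 0.31 against 0.50, 0.55 and 0.38, in the same direction as the immunoprecipitate. Such a separation of the input was found for 1 of 9 members and for 4.33% of 4300 windows.

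**Figure D4:**
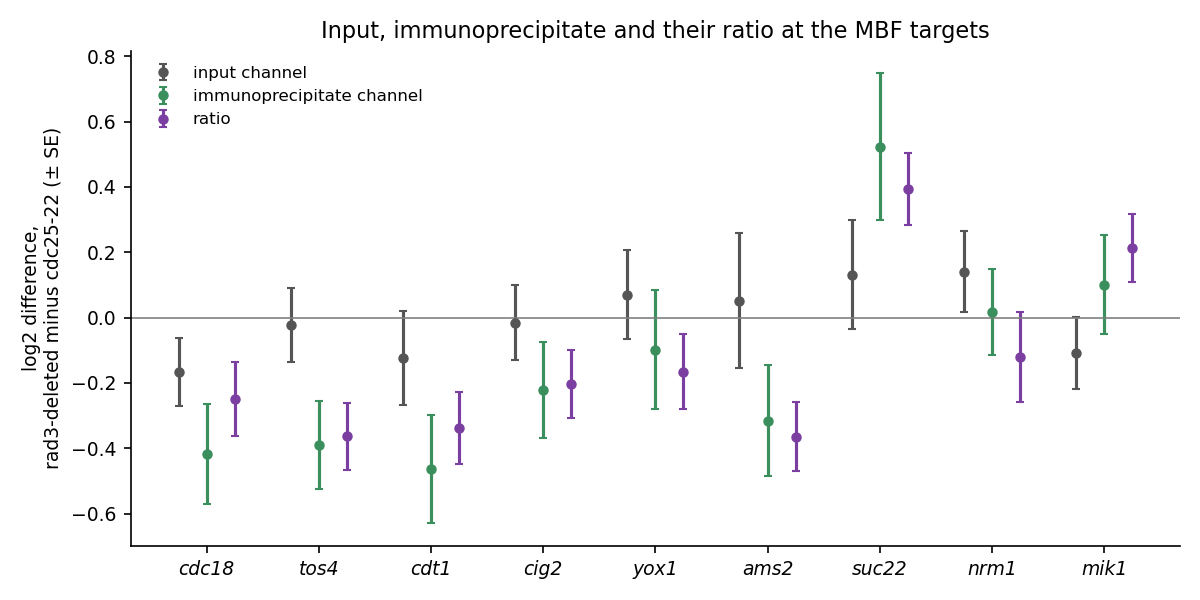
Log2 difference, rad3-deleted minus cdc25-22, with its SE from limma (vertical axis) for each gene in the input channel (grey), the immunoprecipitate channel (green) and their ratio (purple). Input differences stay between -0.17 and 0.14, and the immunoprecipitate differences run from -0.46 for cdt1 to 0.52 for suc22.

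Of 10 other placed MBF targets, 0 rose and 1 fell without rad3, where 15.8% of all windows were called higher and 10% lower. This was eso1, which encodes a translesion polymerase fused to a cohesin acetyltransferase, at 0.10, -0.09 and -0.11 with rad3 and -0.27, -0.27 and -0.73 without (difference -0.39, SE 0.13, adjusted p = 0.0406). Of the 5 MBF subunits and activators, 0 rose and 1 fell, res2, which encodes one of the DNA-binding subunits, at 0.02, -0.07 and -0.02 against -0.33, -0.42 and -0.47 (difference -0.38, SE 0.09, adjusted p = 0.0112). Of 4 placed checkpoint genes (rad9, cds1, chk1 and crb2), 0 passed in either direction (limma). An unadjusted limma p under 0.05 was found for 0 of these 4 and for 1743 of 4300 windows. The median differences of the 3 lists were -0.05, -0.18 and -0.09, against -0.03 for all windows.

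Genes next to the members were read in the same way. The interiors of arc1, which lies 3′ of cdc18, and of bos1, 3′ of tos4, differed by -0.19 and 0.16 (adjusted p = 0.311 and 0.397), beside -0.33 in the cdc18 interior and -0.58 in that of tos4. utp15, 3′ of cdt1, differed by -0.38 (adjusted p = 0.0538), beside -0.29 in the cdt1 interior, and trm1, 3′ of suc22, by 0.45 (adjusted p = 0.0623), beside 0.44 in that of suc22. Around nrm1 the flanks went opposite ways. oga1 on its 5′ side fell by 0.69 (0.29 ± 0.14 with rad3 and -0.40 ± 0.21 without, SD, n = 3 each; adjusted p = 0.0065), and rae1 on its 3′ side rose from -0.02 ± 0.07 to 0.73 ± 0.23 (adjusted p = 0.00343). The downstream probe of nrm1 (chrII:4288950-4289008) lies inside rae1, so the genes share it, and read -0.13, -0.19 and -0.02 against 0.43, 0.56 and 0.69. Elsewhere ssb1, which shares its start with mik1, had -0.32 (adjusted p = 0.104), against 0.35 in the mik1 interior.

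Averaged over the 9 genes, the arrays read 0.23, 0.22 and 0.16 with rad3 and 0.14, 0.01 and 0.06 without. Each cdc25-22 array was above each rad3-deleted one, though replicate 3 with rad3 (0.162) and replicate 1 without it (0.144) lay close. Of 4300 single gene windows, 23.0% also had all rad3-deleted arrays lower. The genes outside the member windows whose 6 values followed the mean of the 9 most closely were cpn1 (Pearson's r = 0.993), yta4 (0.993) and spi1 (0.992). The points are the same 6 arrays, 268 of 4279 genes had an r above 0.9, and the likeness is a description without a test. spi1, the Ran GTPase gene, read 0.41, 0.36 and 0.24 with rad3 and 0.23, -0.02 and 0.02 without (difference -0.26, SE 0.10, adjusted p = 0.0826).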

How the data were processed

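Rad52 immunoprecipitate (green channel) and input (red channel) were read on 6 two-colour arrays. Spot signals were deposited as intensity on a linear scale, from Agilent Feature Extraction 10.7.3.1 per the submitters' processing notes; subtraction of background and correction for dye preceded the processed signal, per the file headers. The authors' scanner files also carry log10 of the red to green ratio. Their deposited value table proved, set against the scanner signals, to be the ratio of green to red on a linear scale. The labels give total RNA as the molecule, although the series is described as a binding study.

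Log2 of green over red processed signal was centred on the array median, with no loess or quantile step. Probes flagged as outliers on any array were left out (40086 of 42641 kept). Probe values were averaged per window and fitted with limma 3.58.1 (R 4.3.3, one mean per strain, 6 arrays), with Benjamini-Hochberg adjustment over all windows and a threshold of 0.05; windows within 1000 bp of rad3 had no difference. Files were placed as described above, a choice taken from the stated rule for these genes. Members, gene lists and tests were chosen with earlier results of these data known. All members are named; from the other lists only called genes, then genes overlapping or next to a member window, and the 3 with the highest r.

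The file headers name an older genome version. Positions were compared with ASM294v3 through G+C content in segments of 50 kb, with 207 of 250 unshifted; 14.2% of probes, on chromosome I from 3750001, were not placed. In simulated arrays of 4303 windows, 100 were changed by 0.6 log2 and 100 by 0.3. The gene-window difference fit recovered 79% and 7% of them, with 3 false calls. The adjustment depends on how many windows change. In the measured arrays 679 were called higher and 431 lower, so these shares need not hold there. The number of arrays limits the precision. Same-numbered arrays share a slide, and their deviations from the strain means correlated at 0.289, 0.203 and 0.157, so the number is a valid block; the scanner protocol was CGH for slides 1 and 2 but ChIP for slide 3. Alternatives covered placement of files, value table, block, left-out arrays, background, scaling, G+C trend, dim probes, window and probe summary. Python 3.11.15, pandas 2.3.3, numpy 2.4.6, scipy 1.17.1, statsmodels 0.14.6 and matplotlib 3.10.9 were used.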

Additional observations from a re-analysis of the deposited data

How the results depend on the processing

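The placement of the files decides the sign: with the files as listed, 0 windows and 0 members passed in any comparison, and the member medians were 0.104 (difference), 0.131 (interiors), 0.03 (immunoprecipitate), 0.079 (cdc25-22 level) and 0.151 (rad3-deleted level). Reversed single genes were cdt1 (0.211), suc22 (-0.136), tos4 (0.115) and ams2 (0.14), and inside the genes suc22 (-0.17), tos4 (0.141) and ams2 (0.095). The cause of the other changes was not tested, and the deposited files held no mean signal, so normexp was run on median signals.

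For the difference, the value table called 423 windows higher and 126 lower with 0 members and a median of -0.059; probes inside the gene gave 434 and 216 and a median of -0.286; the median of the probes called 0 members in each direction. The member median was -0.335 after quantile normalization and -0.305 after scaling. The G+C trend, dim probes, 5 probes per window and 1000 bp flanks moved no count by over 1.5 times, though tos4 missed the threshold with 1000 bp (adjusted p = 0.0512) and after normexp (0.0725). For the cdc25-22 level (176 higher, 38 lower, 4 members), calls were 63 and 2 with 1 member in the value table, 110 and 16 with 2 members by the probe median, 32 and 1 with 1 member after normexp, 83 and 10 with 2 members inside the gene, 480 and 190 after quantile normalization and 356 and 196 after scaling. The cdc25-22 member median of 0.139 became 0.194 by the probe median, 0.197 inside the gene and 0.089 in the value table, and the rad3-deleted median of 0.08 became -0.011 inside the gene.

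With the replicate number as a block, the cdc25-22 level had 81 lower windows, upstream windows 42 lower and 1 member higher, interiors 2 members higher, the input 61 windows higher, and the immunoprecipitate 797 higher and 949 lower windows with 1 and 3 members. The block changed no other call of a member.

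Without 1 array at a time, the difference had 447 to 820 higher and 90 to 702 lower windows, 0 to 1 members higher and 0 to 4 lower, with a median of -0.269 to -0.16. The cdc25-22 level had 54 to 253 higher and 2 to 85 lower windows, 1 to 4 members higher and a median of 0.135 to 0.212. The rad3-deleted level had 839 to 1052 higher and 620 to 1042 lower windows and 0 to 2 members lower. Upstream windows gave 206 to 525 higher and 1 to 38 lower. Interiors gave 224 to 526 higher and 29 to 414 lower, 0 to 1 members higher, 1 to 3 lower and a median of -0.388 to -0.149. The immunoprecipitate gave 291 to 484 higher and 33 to 278 lower, 0 to 1 members in each direction and a median of -0.282 to -0.17, and the input median was -0.051 to 0.034. Across all settings 684 of 766 values of single members kept their direction where called and their side of the threshold, 62 lost a call, 13 gained one and 7 reversed. Without the setting of files as listed, 636 of 704 kept both, 55 lost a call, 13 gained one and 0 reversed.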
